A study of Arabidopsis thaliana with 2 samples.

Results

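Catalases, superoxide dismutases and ascorbate peroxidases are the enzymes with which plant cells remove superoxide and hydrogen peroxide. The 10 nuclear genes described here were chosen by name: CAT1, CAT2 and CAT3 for catalases, CSD1, CSD2, FSD1 and MSD1 for superoxide dismutases, and APX1, SAPX and TAPX for ascorbate peroxidases. They are 10 of the 33557 genes in the deposited tables, and each was found in both libraries. Messenger RNA was sequenced from whole seedlings of Arabidopsis thaliana, accession Col0, that carry the arp6-1 mutation, which affects ARP6, an actin-related subunit of the chromatin complex that places histone H2A.Z. The seedlings were 10 days old, had been raised in long days at 17 °C, and are the 15 min sample of the arm that stayed at 17 °C in a temperature experiment begun 1 h after dawn (ZT1). The labels give 1 group with 2 libraries, replicate 1 and replicate 2. Wild-type seedlings, warmer temperatures and other times were not analysed here. The data therefore describe levels within arp6-1 seedlings and the spread between duplicates, not an effect of the mutation.

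Superoxide dismutases convert superoxide to hydrogen peroxide and differ in their metal cofactor, which is copper and zinc in CSD1 and CSD2, iron in FSD1 and manganese in MSD1. Catalases break down hydrogen peroxide in peroxisomes, where photorespiration and fatty acid breakdown produce it. Ascorbate peroxidases reduce hydrogen peroxide to water with ascorbate, which the ascorbate-glutathione cycle regenerates. CSD1 and APX1 are known from the cytosol, MSD1 from mitochondria, and CSD2, FSD1, SAPX (stroma) and TAPX (thylakoid) from chloroplasts; FSD1 also occurs in the cytosol and SAPX in mitochondria. When copper is short, the transcription factor SPL7 is known to raise FSD1 and the microRNA miR398, and miR398 guides cleavage of the CSD1 and CSD2 transcripts and of CCS, the copper chaperone of these enzymes.

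The mature miR398 sequences are shown because CSD1, CSD2 and CCS are known as targets of this microRNA. Both variants, from RefSeq on TAIR10.1, carry the same seed (bases 2 to 8, in capitals), and miR398c-3p has the letters of miR398b-3p.
miR398a-3p: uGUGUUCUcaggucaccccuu
miR398b-3p: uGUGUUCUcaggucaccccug
The best ungapped matches to miR398a-3p in the RefSeq transcripts of 2 superoxide dismutases and of CCS follow, 5′ to 3′, with capitals where the letter pairs by Watson-Crick rules.
CSD1: AAGGGGUuuCCUGAGAuCACA
CSD2: ugcGGGUGACCUGgGAAacau
CCS: AuuGGGaGACCUGgGAACACu
The CSD1 site paired at 18 of 21 positions, lies in the 5′ UTR and is split by an intron, between 2827177 and 2827685 on chromosome 1. The CSD2 site paired at 13 positions and lies in the coding sequence at 12015572 to 12015592 on chromosome 2. The CCS site paired at 16 positions and lies in the coding sequence at 4267521 to 4267541 on the minus strand of chromosome 1. The best ungapped match in FSD1, which is not known as a target, paired at 15 positions, more than the CSD2 site. Matches with a gap were not searched, so these numbers cannot separate known targets from other transcripts.

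The counts over all genes summed to 20249142 in replicate 1 and 12410991 in replicate 2. Each of the 10 genes passed the minimum of 10 counts in both libraries, with counts between 278 and 41021. Levels are the authors' TPM, an abundance corrected for transcript length and sequencing depth, as mean ± SD over 2 libraries. Differences are ratios of counts scaled by TMM, replicate 1 over replicate 2, with exact 95% Clopper-Pearson intervals that cover counting error only. No p-value is given, because 2 libraries of 1 group leave no spread to test against, and a gene is called different when the ratio is at least 1.5 either way and the interval excludes 1. The labels do not say that the duplicates came from separate cultures, so the spread may be technical. ARP6 itself had 7 counts in replicate 1 and 7 in replicate 2. Its span overlaps another gene in the files, as do those of CSD1, CSD3, APX4, FER1, MIR398B and MIR398C, so their values are uncertain. The libraries stood far apart in 5 genes known to be inducible by abscisic acid. In replicate 2, 5 of 5 were higher, against 17.0% of all tested genes. Their summed levels were 19.6 TPM in replicate 1 and 3906 TPM in replicate 2. They include LEA7, which had the lowest log2 ratio of all tested genes (-9.75) and also overlaps another gene. The 5 genes thus describe how far the libraries stood apart and are not a test against that share. The 5 green shoot markers had 14374 and 14847 TPM in replicates 1 and 2 and none was called. The 5 root markers had 111 and 58.4 TPM, with 2 of 4 tested members higher in replicate 1, against 18.7% of all tested genes. Those were PIN2 (19.3 and 6.95 TPM, ratio 2.81) and AT1G05250 (32.1 and 2.30 TPM, ratio 14.6). SCR gave the largest part of both sums, at 58.3 and 48.1 TPM, and was not called, nor was PLT2. The 4 seed markers had 0.845 and 33.9 TPM, with CRU3 and LEC1 at 0 counts in both, and the 3 flower and pollen markers had 0.0543 and 0.0904 TPM, with AG and VGD1 at 0 counts in both. The part of these differences in the results below was not tested. In bulk seedlings, fewer cells of a type and less RNA per cell cannot be told apart.

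The enzyme genes spanned a wide range of levels, with a peroxisomal catalase at the top and another catalase at the bottom. CAT2 led with a mean of 1244 ± 85.1 TPM, followed by FSD1, APX1, MSD1, CAT3, TAPX, SAPX, CSD1, CSD2 and CAT1, the last at 15.4 ± 3.48 TPM. The highest exceeded the lowest 101-fold in replicate 1 and 66.3-fold in replicate 2. Of the 9 neighbouring pairs in this order, 4 had ranges that did not overlap between the libraries: CAT2 above FSD1, APX1 above MSD1, CAT3 above TAPX, and CSD2 above CAT1. The other 5 pairs overlapped, and for TAPX and SAPX, SAPX and CSD1, and CSD1 and CSD2 the order also differed between the libraries. Which pairs stood apart depended on the TPM used. With TPM computed from counts and exon lengths, APX1 (603 and 330) and MSD1 (347 and 307) overlapped, while MSD1 stood above CAT3 (213 and 186). CAT2 and FSD1 were narrowly apart in the authors' TPM, at 1184 against 1165. CAT2, FSD1, APX1, MSD1 and CAT3 stood above the 95th percentile of mean level among the 19519 genes that passed the count minimum, while CAT1 stood at percentile 47.5. Together the 10 genes made up 0.415% of all TPM in replicate 1 and 0.286% in replicate 2.

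**Figure D1:**
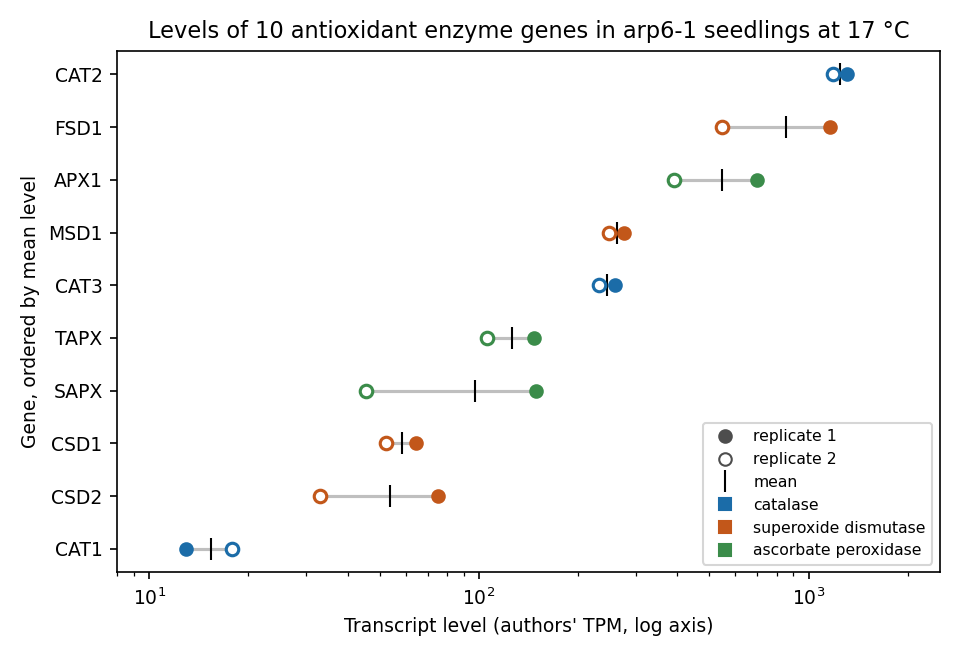
Transcript level of each of the 10 genes in TPM (log axis), with replicate 1 as filled circles, replicate 2 as open circles and the mean as a tick, coloured by enzyme family. CAT2 lies at 1304 and 1184 TPM, CAT1 is lowest in both, and the SAPX, CSD2 and FSD1 circles are the widest apart.

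CAT2, the catalase of photosynthetic tissue that handles photorespiratory hydrogen peroxide, was among the most abundant transcripts of the seedling. CAT2 (AT4G35090, chromosome 4, 16700342 to 16703325 in TAIR10) had 41021 counts and 1304 TPM in replicate 1 and 22166 counts and 1184 TPM in replicate 2, and ranked 48th and 50th among all genes. The libraries were close, with a ratio of 1.08 (interval 1.06 to 1.10). In the RefSeq annotation, though not in the files, its span overlaps AT4G35080 on the other strand. CAT3 (AT1G20620, chromosome 1, 7143067 to 7146540), whose transcript is known to peak in the evening, had 8640 counts and 259 TPM in replicate 1 and 4525 counts and 231 TPM in replicate 2. Its ratio was 1.11 (1.07 to 1.16), so both major catalases differed by less than 1.2-fold. CAT1 (AT1G20630, chromosome 1, 7146636 to 7149977), a minor catalase known from seeds and pollen and inducible by abscisic acid, had 416 counts and 12.9 TPM in replicate 1 and 337 counts and 17.9 TPM in replicate 2. It was the one gene of the 10 with a higher level in replicate 2, at a ratio of 0.720 (0.622 to 0.834), and was not called. Its log2 ratio stood at percentile 22.2 of all tested genes, and a link to the abscisic acid genes was not tested.

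Catalase transcripts kept nearly the same composition in both libraries. CAT2 made up 82.8% of catalase TPM in replicate 1 and 82.6% in replicate 2 (82.7 ± 0.0953%), and CAT3 made up 16.4% and 16.1%. CAT1 supplied 0.821% and 1.25%. CAT2 exceeded CAT3 5.04-fold and 5.12-fold in TPM in replicates 1 and 2. CAT3 and CAT1 lie head to tail on the plus strand with 95 bases between them, and CAT3 exceeded CAT1 20.0-fold in TPM in replicate 1 and 12.9-fold in replicate 2. The longest run of identical bases between any 2 catalase transcripts was 32, well under the 100-base reads, and coding sequences of CAT1 and CAT2 were identical at 80.3% of aligned bases.

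The 250 bases before the annotated start of CAT3 are shown because this window holds the evening element, AAAATATCT (in capitals; searched on both strands), a motif known from evening-phased genes. They lie at chr1:7142722-7142971 on the plus strand in TAIR10.1.
CAT3 promoter: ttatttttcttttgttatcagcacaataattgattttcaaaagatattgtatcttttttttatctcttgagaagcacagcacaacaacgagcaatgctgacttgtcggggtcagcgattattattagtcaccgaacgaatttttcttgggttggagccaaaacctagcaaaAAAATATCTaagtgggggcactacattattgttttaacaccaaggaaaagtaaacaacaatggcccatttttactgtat
The match begins 79 bases before the RefSeq start, 7142972, which lies upstream of the CAT3 start in the files given above. It was found in 1 of the 10 genes, and in 2.36% of 27443 promoter windows of protein-coding genes. The abscisic acid element ACGTGNC was found in CSD1 and MSD1, 2 of the 10 genes, against 8.57% of all windows, and not in the window of CAT1. Most of the CAT1 window lies within CAT3, since only 95 bases separate these genes.

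FSD1, the iron enzyme, had the highest level of the superoxide dismutases in both libraries. FSD1 (AT4G25100, chromosome 4, 12884300 to 12887011) had 18054 counts and 1165 TPM in replicate 1 and 5119 counts and 547 TPM in replicate 2, ranking 60th and 203rd of all genes. Replicate 1 was higher, with a ratio of 2.06 (1.99 to 2.12). MSD1 (AT3G10920, chromosome 3, 3417954 to 3419853), the mitochondrial manganese enzyme, had 4505 counts and 275 TPM in replicate 1 and 2395 counts and 249 TPM in replicate 2. Its libraries were close, with a ratio of 1.10 (1.04 to 1.15). CSD2 (AT2G28190, chromosome 2, 12014498 to 12016569), the chloroplast copper/zinc enzyme, had 1059 counts and 75.0 TPM in replicate 1 and 278 counts and 32.9 TPM in replicate 2. It was also higher in replicate 1, at a ratio of 2.22 (1.95 to 2.55). CSD1 (AT1G08830, chromosome 1, 2827061 to 2829315), its cytosolic counterpart, had 722 counts and 64.5 TPM in replicate 1 and 337 counts and 52.3 TPM in replicate 2, a ratio of 1.25 (1.10 to 1.43) that was not called. The CSD1 span overlaps AT1G08840 by 211 bases in the files, and that gene had 199 and 99 counts in replicates 1 and 2.

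Among the 4 superoxide dismutases FSD1 made up 73.8% of TPM in replicate 1 and 62.1% in replicate 2 (67.9 ± 8.24%). MSD1 made up 17.4% and 28.2%, and the larger share in replicate 2 went with the lower FSD1 level there. CSD1 and CSD2 supplied 4.08% and 4.75% in replicate 1 and 5.93% and 3.73% in replicate 2. FSD1 exceeded the sum of CSD1 and CSD2 8.35-fold in replicate 1 and 6.43-fold in replicate 2. That sum leaves out CSD3, a further copper/zinc enzyme gene, which had 57.1 TPM in replicate 1 and 61.8 TPM in replicate 2. Including FSD2 and FSD3 of the chloroplast nucleoid, CSD3, and MSD2 (AT3G56350), a further manganese enzyme gene, FSD1 was 65.0% and 54.0% of the TPM of 8 genes in replicates 1 and 2.

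The 250 bases before the FSD1 start are given because GTAC (capitals) is the core letters of the site that SPL7 is known to bind. They lie at chr4:12887012-12887261 in TAIR10.1 and are written for the minus strand, on which the gene lies.
FSD1 promoter: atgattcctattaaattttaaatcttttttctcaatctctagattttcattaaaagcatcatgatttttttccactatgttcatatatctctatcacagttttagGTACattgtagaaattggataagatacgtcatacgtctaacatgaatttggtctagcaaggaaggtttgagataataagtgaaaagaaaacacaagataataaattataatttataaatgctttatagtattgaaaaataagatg
The match begins 145 bases before the RefSeq start, which is also the gene's end coordinate in the files. GTAC, which reads the same on both strands, was found in the windows of CAT2, CSD1, FSD1 and TAPX, 4 of the 10 genes, and in 34.3% of all windows, so its presence does not set FSD1 apart.

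APX1, the cytosolic ascorbate peroxidase, was the main transcript of its family, and SAPX had the largest difference between the duplicates of all 10 genes. APX1 (AT1G07890, chromosome 1, 2437330 to 2439665) had 12951 counts and 697 TPM in replicate 1 and 4252 counts and 392 TPM in replicate 2. Replicate 1 was higher, at a ratio of 1.78 (1.72 to 1.84). SAPX (AT4G08390, chromosome 4, 5314905 to 5317456), the stromal enzyme, had 3466 counts and 149 TPM in replicate 1 and 626 counts and 45.6 TPM in replicate 2. Its ratio of 3.23 (2.97 to 3.52) placed it at percentile 97.9 of the log2 ratios of all tested genes. TAPX (AT1G77490, chromosome 1, 29117542 to 29120215), which is anchored in thylakoids, had 3814 counts and 146 TPM in replicate 1 and 1631 counts and 106 TPM in replicate 2, a ratio of 1.36 (1.29 to 1.45) that was not called. The chloroplast enzymes thus stood nearly level in replicate 1, where TAPX was 0.982 times SAPX, and apart in replicate 2, where TAPX was 2.33 times SAPX. Their coding sequences were identical at 77.9% of aligned bases and the transcripts shared no run longer than 21 bases.

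APX1 made up 70.2% of the TPM of the 3 ascorbate peroxidases in replicate 1 and 72.1% in replicate 2 (71.2 ± 1.32%). SAPX supplied 15.0% and 8.39%, and TAPX 14.8% and 19.5%. With the 5 further genes of the family, APX1 held 45.6% and 42.2%. APX4, also named TL29, a protein of the thylakoid lumen, then came next at 21.5% and 21.8%, and peroxisomal APX3 supplied 11.7% and 16.5%.

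**Figure D2:**
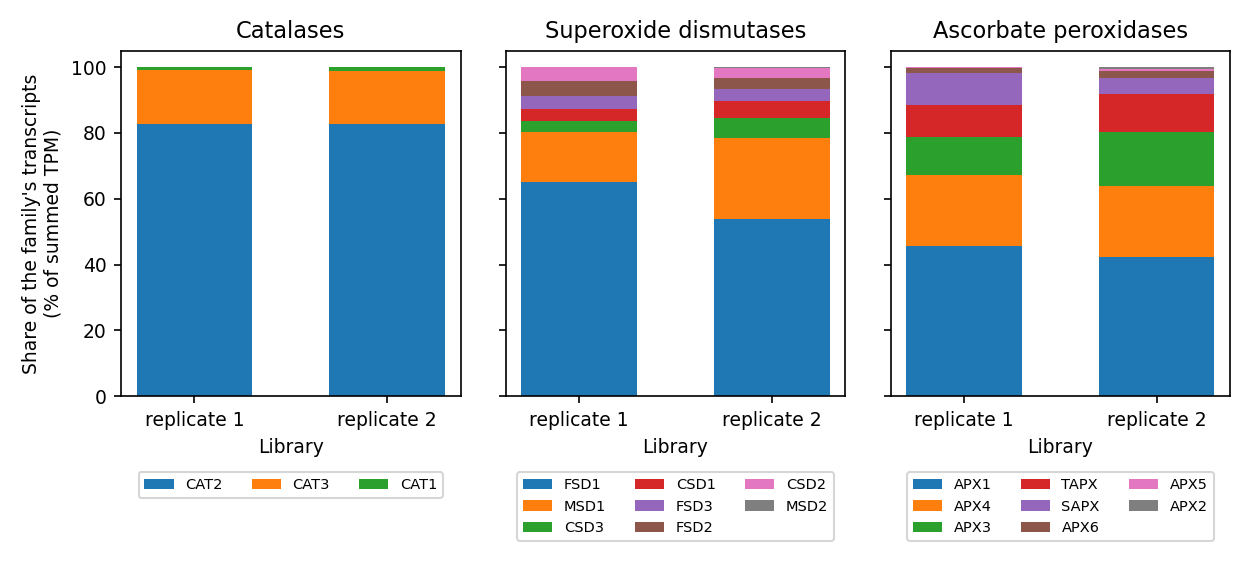
Share of each gene in the summed TPM of its family (%), for 3 catalases, 8 superoxide dismutases and 8 ascorbate peroxidases, with replicate 1 left and replicate 2 right in each panel. CAT2 holds 82.8% and 82.6% of catalase transcripts, while the FSD1 share is 65.0% in replicate 1 and 54.0% in replicate 2.

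Between the duplicates, 4 of the 10 genes were called higher in replicate 1 (CSD2, FSD1, APX1 and SAPX) and 0 higher in replicate 2. Of all 19519 tested genes 18.7% were called higher in replicate 1 and 17.0% higher in replicate 2, 35.7% in either direction, so a gene that differs is common in this pair of libraries. At a threshold of 2, 3 genes were called higher in replicate 1, against 8.60% of all genes, and 0 in replicate 2, against 8.95%. At 1.2, 6 were higher in replicate 1, against 29.8%, and 1 in replicate 2, against 29.0%. The median log2 ratio of the 10 genes was 0.39, against 0.00479 over all tested genes, whose 75th percentile was 0.45. Ratios above 1 were found in 9 of the 10, and in 9832 of all 19519 tested genes. By family, 0 of 3 catalases, 2 of 4 superoxide dismutases and 2 of 3 ascorbate peroxidases were called. By the compartment in which the enzymes are known, a grouping made after the values were seen, 3 of 4 chloroplast enzymes and 1 of 6 others were called higher in replicate 1.

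**Figure D3:**
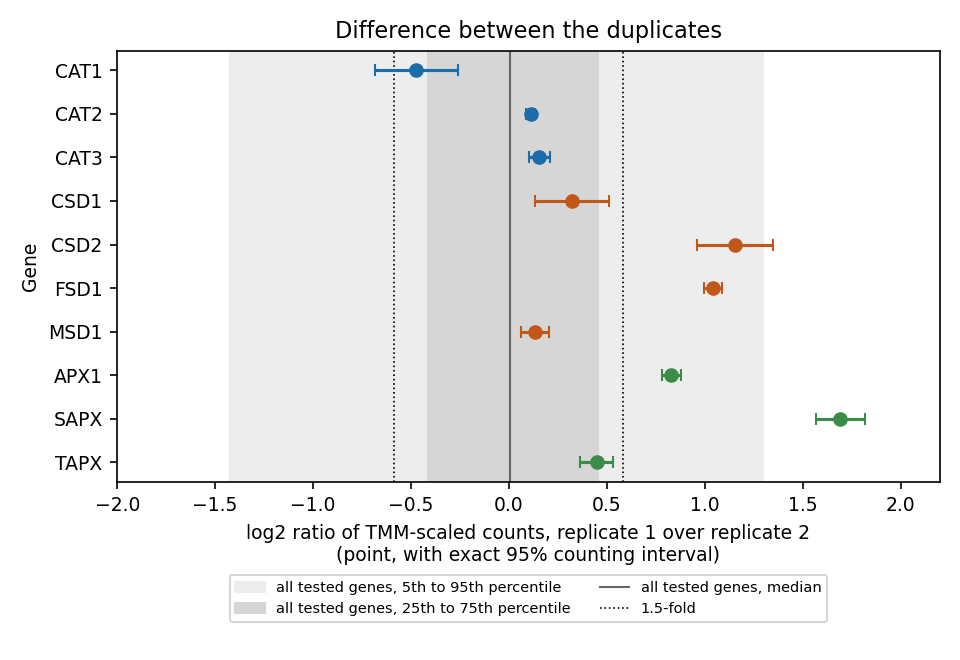
Log2 ratio of TMM-scaled counts, replicate 1 over replicate 2, for each gene, with exact 95% counting intervals; shaded bands give the 5th to 95th and 25th to 75th percentiles of all tested genes and dotted lines mark 1.5-fold. SAPX at 1.69 lies beyond the 95th percentile of all tested genes, and CAT2, CAT3 and MSD1 lie close to the median of all genes.

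Other genes of these families and of related pathways were set beside the 10 genes as lists. Their counts stand against 18.7% of all tested genes called higher in replicate 1 and 17.0% called higher in replicate 2. Of 8 tested genes among 9 further members of the superoxide dismutase and ascorbate peroxidase families, 3 were higher in replicate 1 and 0 in replicate 2. The 3 encode chloroplast proteins. FSD2 had 78.4 and 31.6 TPM in replicates 1 and 2 (ratio 2.46). FSD3 had 75.7 and 38.0 TPM (ratio 1.97), and APX4 had 329 and 202 TPM (ratio 1.61). Heat-inducible APX2 missed the minimum with 6 and 47 counts.

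Of 10 genes for the enzymes that regenerate ascorbate and glutathione, 2 were called higher in each replicate, a share close to the 18.7% and 17.0% of all tested genes, with a median log2 ratio of -0.23. The monodehydroascorbate reductase MDAR3 had 24.7 TPM in replicate 1 and 4.42 TPM in replicate 2 (ratio 5.29), and MDAR2 had 134 and 74.2 TPM (ratio 1.79). The dehydroascorbate reductase DHAR1, the most abundant of the list, had 348 TPM in replicate 1 and 722 TPM in replicate 2 (ratio 0.475), and the glutathione reductase GR1 had 216 and 392 TPM (ratio 0.539). DHAR1 was thus below APX1 in replicate 1 and above it in replicate 2. Of 8 genes for the synthesis of ascorbate and glutathione 0 were called. VTC2, which makes the committed step to ascorbate, led this list at 896 TPM in replicate 1 and 852 TPM in replicate 2.

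Peroxiredoxins and glutathione peroxidase-like proteins, thiol enzymes that also remove peroxides, had 2 of 16 tested genes called higher in replicate 1 and 0 higher in replicate 2. Those were the chloroplast enzymes PRXIIE (455 and 207 TPM, ratio 2.24) and 2CPB (308 and 178 TPM, ratio 1.70). The chloroplast 2-Cys enzyme 2CPA was the most abundant at 994 TPM in replicate 1 and 769.7 TPM in replicate 2, below CAT2 in each library. Among the further superoxide dismutases and ascorbate peroxidases, the regenerating enzymes and these thiol enzymes, 12 genes were grouped as chloroplast proteins. Of these, 5 were called higher in replicate 1, 0 in replicate 2 and 7 were not called, against 18.7% and 17.0% of all tested genes. Ratios above 1 were found in 9 of the 12, and a link to the compartment was not tested.

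Of the copper and miR398 list, 12 of 15 genes were tested, 1 was higher in replicate 1 and 2 in replicate 2. COX5B1, a cytochrome oxidase subunit gene known as a miR398 target, had 82.8 TPM in replicate 1 and 49.3 TPM in replicate 2 (ratio 1.68). SPL7 had 21.5 and 35.0 TPM (ratio 0.614), and the laccase LAC12 had 0.655 and 2.69 TPM (ratio 0.248). CCS had 17.6 and 13.2 TPM at a ratio of 1.33 (1.10 to 1.62) and was not called. Its interval overlapped that of CSD1 (1.10 to 1.43), so the order of these ratios is not resolved. The plastocyanin PETE2, a copper protein of photosynthesis, was the most abundant at 1773 and 1531 TPM. Of the precursor genes, MIR398A and MIR398B had 0 counts in both libraries, which allows up to 3 counts each, and MIR398C had 12 and 12 counts. These libraries do not measure mature microRNAs.

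Photorespiration and peroxisomal fatty acid breakdown supply the hydrogen peroxide that catalase removes. Photorespiration genes were abundant, with a summed level of 8371 TPM in replicate 1 and 7637 TPM in replicate 2, and 2 of 13 were called higher in replicate 1 (GLDT, ratio 1.63, and PGLP1, ratio 1.57) and 0 higher in replicate 2, against 18.7% and 17.0% of all tested genes. SHM1 led the list at 1256 and 1085 TPM. Glycolate oxidase, the peroxisomal source of photorespiratory hydrogen peroxide, is encoded by GOX1 (1201 and 1062 TPM) and GOX2 (619.9 and 467 TPM), and CAT2 stood at 0.716 and 0.774 times their sum in replicates 1 and 2. GOX1 and GOX2 are near neighbours on chromosome 3 and closely related, so how reads were split between them is uncertain. The 8 genes of the peroxisomal fatty acid breakdown list summed to 405 and 640 TPM. The lists differ in length and hold genes whose enzymes make no hydrogen peroxide, such as SHM1, ICL and MLS. Their sums therefore do not compare its supply. Of the 8 genes, 2 were called higher in replicate 2, the acyl-CoA oxidases ACX2 (25.5 and 65.9 TPM, ratio 0.388) and ACX1 (60.3 and 149.7 TPM, ratio 0.395), and 0 were called higher in replicate 1. With so few genes these counts are not read as a difference from the background or between the processes. KAT2 led this list at 137 and 203 TPM. NCA1, a chaperone needed for catalase activity, had 84.2 and 115 TPM and a ratio of 0.707, and was not called. The catalase ratios were 0.720 for CAT1, 1.08 for CAT2 and 1.11 for CAT3.

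Of 9 genes that produce or respond to reactive oxygen, 1 was called higher in replicate 1 and 3 in replicate 2, and 8 had ratios below 1. Among all 19519 tested genes, 9832 had ratios above 1. The zinc finger factors ZAT12 (36.7 and 119.9 TPM in replicates 1 and 2, ratio 0.311) and ZAT10 (153 and 342 TPM, ratio 0.452) and the oxidative stress marker UPOX (19.2 and 47.5 TPM, ratio 0.385) were higher in replicate 2. FER1, a ferritin of chloroplasts that stores iron, was higher in replicate 1 at 123 and 47.4 TPM (ratio 2.77). The median log2 ratio of these genes was -0.40, against 0.39 for the 10 enzymes. Both medians lay between the 25th (-0.42) and 75th (0.45) percentiles of all tested genes.

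**Figure D4:**
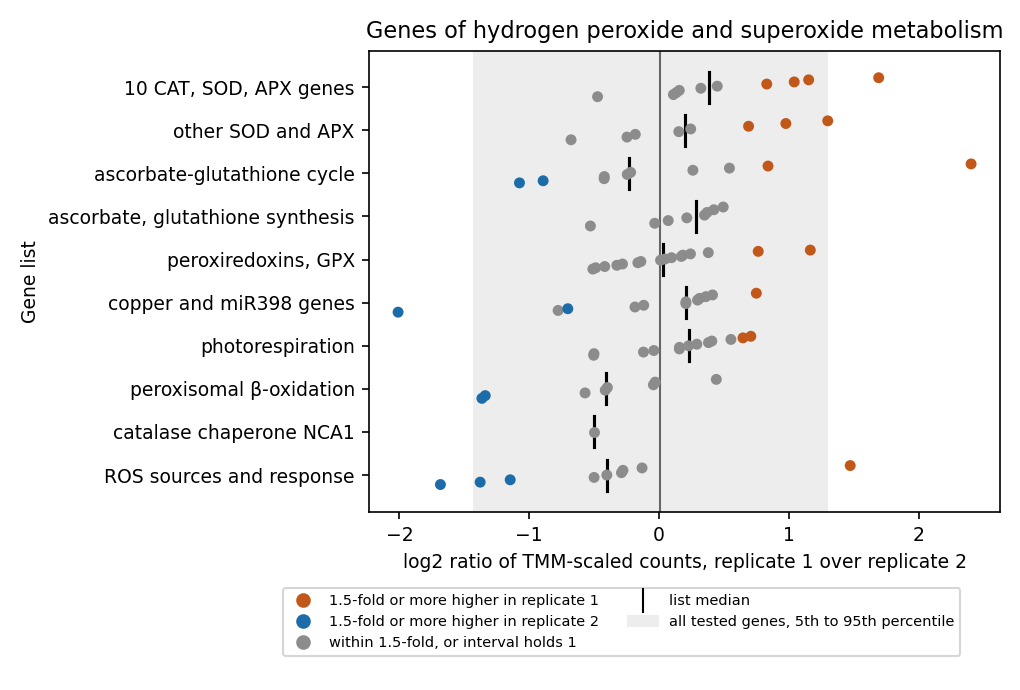
Log2 ratio of TMM-scaled counts, replicate 1 over replicate 2, of every tested gene in each list, with the list median as a bar; genes called at 1.5-fold are coloured and the band gives the 5th to 95th percentile of all tested genes. The 10 enzymes have a median of 0.39, and the genes of reactive oxygen sources and response one of -0.40. Both lie between the 25th and 75th percentiles of all tested genes.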

How the data were processed

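RNA-seq of 2 libraries of 1 group was used. Per the file headers, the authors' Raw column holds counts, which are whole numbers with no scaling. The deposited FPKM values, per the file headers, are corrected for transcript length and depth, and the authors' TPM equals FPKM rescaled to a fixed sum; FPKM served for that check alone. FastQC, Trimmomatic, TopHat and Picard, and the build TAIR10, are named in the submitters' processing notes without versions or roles. Neither the read counter nor its strandedness is given in the sources used here, and the labels name a stranded and an unstranded kit without saying which library had which.

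Starts in the files count from 0, since 14666 genes matched the RefSeq start after adding 1 and 134 as written; printed coordinates are 1-based. Of 33557 gene IDs, 32810 matched TAIR10.1 (97.8%). Library sizes were scaled by TMM (edgeR 4.0.16, R 4.3.3), with factors from genes that reached 10 counts in each library. The fold threshold was 1.5. Alternatives were DESeq2 1.42.0 size factors, total counts, nuclear genes only, no count filter, the authors' TPM ratio, thresholds of 1.2 and 2, TPM computed from counts and exon lengths, and a pseudocount of 0.1. Reads carry no molecular identifiers, so intervals and floors cover counting error only. The 10 genes and the 9 pathway lists (90 genes) were chosen with earlier results of these data known. Named were all 10 genes and, from each list, the most abundant member and up to 3 called members with the largest ratio each way; APX2, APX3, NCA1, GOX1, GOX2, CCS and the MIR398 genes were added after their values were seen.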

Additional observations from a re-analysis of the deposited data

How the results depend on the processing

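The 4 genes called higher in replicate 1 numbered 4 under each of the 5 other scalings, 4 without the genes that overlap another gene (CAT2 and CSD1, chosen after seeing the data), 3 at a threshold of 2 and 6 at 1.2; called higher in replicate 2 were 0 in each of these but 1 at 1.2, which was CAT1. Of 50 ratios of single genes under another scaling, 50 kept their direction. The shift on the log2 scale ran from -0.018 to 0.071, and total counts shifted the median of all genes by 0.071. Of the 85 tested genes of the pathway lists, 11 were higher in replicate 1, 4 at a threshold of 2 and 25 at 1.2. The shares of all tested genes were 18.7%, 8.60% and 29.8%. Higher in replicate 2 were 9, 7 at a threshold of 2 and 26 at 1.2, against 17.0%, 8.95% and 29.0%. These counts are not read as a difference from all genes or between the replicates. The CAT2 share of catalase TPM was 84.4% with TPM computed from counts, and 82.6% to 82.8% from either library alone. Such single-library ranges were 62.1% to 73.8% for FSD1 and 70.2% to 72.1% for APX1. With computed TPM the mean share of FSD1 among 4 superoxide dismutases was 59.7%, and that of APX1 among 3 ascorbate peroxidases was 70.0%. Among 8 superoxide dismutase genes FSD1 then made up 57.3% in replicate 1 and 45.9% in replicate 2. Computed levels were 0.813 to 1.25 times the deposited ones, the extremes being CAT3 (199 TPM) and MSD1 (327 TPM). With genes of a mean count of at least 300, added after seeing the data, the background of genes higher in replicate 1 was 14.6% and in replicate 2 16.9%. No paired analysis was possible because the labels give 1 group, whose replicates cannot be paired with another. Leaving out a library leaves no difference to compute, and 2 libraries cannot separate spread between cultures from technical spread.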
